A study of Mus musculus with 2 samples.

Results

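Circular RNAs (circRNAs) from 7 genes of the Wnt, BMP and Notch pathways were examined in crypts of the small intestine from wild-type mice. The genes were Lrp6, Tnks2 and Fbxw11 for Wnt, Acvr2a and Smad1 for BMP and activin, and Itch and Numb for Notch. Every entry of the circRNA table whose gene name field holds any of these symbols was taken, which gave 8 circRNAs of 1132 in all, 2 of them from Tnks2. The series has 1 group of 2 RNA-sequencing libraries, replicates 1 and 2, with no treatment named in the labels, so no condition can be compared. The titles call the samples crypts and the cell type label calls them stem cells. For strain, age, pooling of mice and sorting, the sources used here give nothing. The labels do not state that the libraries came from separate mice, so a spread between them may be technical.

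Wnt, BMP and Notch signals set the balance between stem cells and differentiated cells in the crypt. Wnt ligands, which Paneth cells and stroma supply, bind Frizzled receptors with LRP5 or LRP6 and protect beta-catenin from degradation, BMP signals rise towards the villus and restrain stem cells, and Notch contacts keep progenitors from the secretory fate. A circRNA forms when the 3' end of an exon is spliced back to the 5' end of the same or an earlier exon. A read across that join, a back-splice read, is what the table counts. A value here therefore counts such reads and does not measure the messenger RNA of the gene. Such a count comes from 1 join per circle and does not grow with the length of the gene. Whether each join comes from a circle was not tested here, and the entries are called circles as listed.

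The joins of the 8 circles are shown because they are what the reads identify, and because a probe or primer pair for a circle has to span them. Each line gives the last 20 bases before the join in lower case and the first 20 bases after it in capitals, 5' to 3' in the sense of the gene, from GENCODE M21 transcripts (GRCm38, the same assembly as mm10).
Lrp6 exon 2: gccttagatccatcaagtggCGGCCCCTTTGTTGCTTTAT
Tnks2 exons 10 to 12: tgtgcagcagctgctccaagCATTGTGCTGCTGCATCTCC
Tnks2 exons 14 to 15: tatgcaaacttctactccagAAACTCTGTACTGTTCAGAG
Fbxw11 exons 2 to 4: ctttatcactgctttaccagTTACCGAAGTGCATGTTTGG
Acvr2a exons 2 to 4: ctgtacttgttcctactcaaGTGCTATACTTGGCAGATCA
Smad1 exon 2: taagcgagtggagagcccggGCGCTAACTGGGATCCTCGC
Itch exons 3 to 4: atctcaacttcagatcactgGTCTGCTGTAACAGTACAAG
Numb exons 2 to 4: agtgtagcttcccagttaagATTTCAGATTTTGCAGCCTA

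The circles had few reads in absolute terms but mostly stood above the median circRNA of the table, and Acvr2a and Lrp6 led. Together the 8 had 32 of 3546 listed back-splice reads in replicate 1 (0.902%, exact Clopper-Pearson 95% interval 0.618 to 1.27%) and 41 of 4441 in replicate 2 (0.923%, 0.663 to 1.25%). Their share averaged 0.913 ± 0.0147% (SD, n = 2). Intervals in this text treat each read as independent and cover counting error alone. Reads can be copies of the same molecule, so the intervals may be too narrow. The median circle had 6.5 reads over both libraries, against 3 over all 1132 circRNAs, and 7 of the 8 were above that median of 3, as were 515 of all circRNAs (45.5%). Levels are given as CPM, which is back-splice reads per 1000000 listed back-splice reads of the library, so that 1 read weighed 282 CPM in replicate 1 and 225 CPM in replicate 2.

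**Figure D1:**
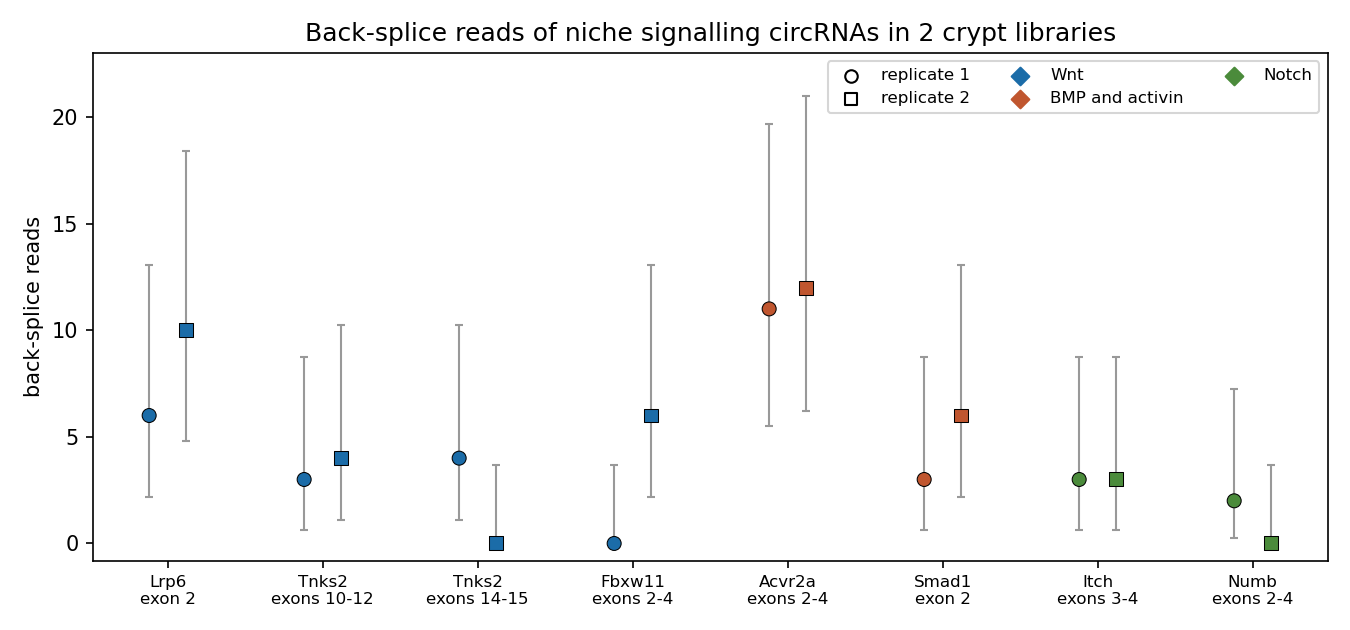
Back-splice reads (vertical axis, linear) of each circRNA in replicate 1 (circles) and replicate 2 (squares), coloured by pathway, with exact Poisson 95% intervals as bars. Acvr2a, with 11 and 12 reads, is the highest of the 8 circRNAs in both libraries, and Tnks2 exons 14 to 15, Fbxw11 and Numb each have a library at 0.

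In the listing of reads by library, 5 of the 8 circles were in both libraries, those of Acvr2a, Lrp6, Smad1, Itch and Tnks2 exons 10 to 12, against 330 of 1132 circRNAs (29.2%). A circRNA with more reads is more readily listed in both, and the median was 6.5 reads for the 8 against 3 for all. Fbxw11 was listed in replicate 2 alone, and Numb and Tnks2 exons 14 to 15 in replicate 1 alone. Single reads are listed in part of the table, as 41 circRNAs have 1 read in total and 13 of the 330 have 1 read in a library. Yet among the 373 circRNAs whose reads summed to 2, a read in each library was seen for 1. The rule behind a listed 0 is therefore not known, and no fold is given against it. No circle differed between the libraries in an exact binomial test of its reads against the library totals (two-sided, Benjamini-Hochberg adjusted over 1132 circRNAs, lowest adjusted p = 0.427), whereas 18 of 1132 circRNAs (1.59%) passed the threshold of 0.05. Tnks2 exons 14 to 15 and Fbxw11 had unadjusted p of 0.0389 and 0.0372, 2 of 8 circles under 0.05, as were 106 of all circRNAs (9.36%). The 18 that passed had at least 9 reads each, and 5 of the 8 circles had fewer, so a difference between the libraries was not detectable for those at this depth. The test compares these libraries with counting error, not conditions. It takes each listed 0 as a count of 0. The p-values of circRNAs with a listed 0, Tnks2 exons 14 to 15 and Fbxw11 among them, therefore depend on that unknown rule.

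**Figure D2:**
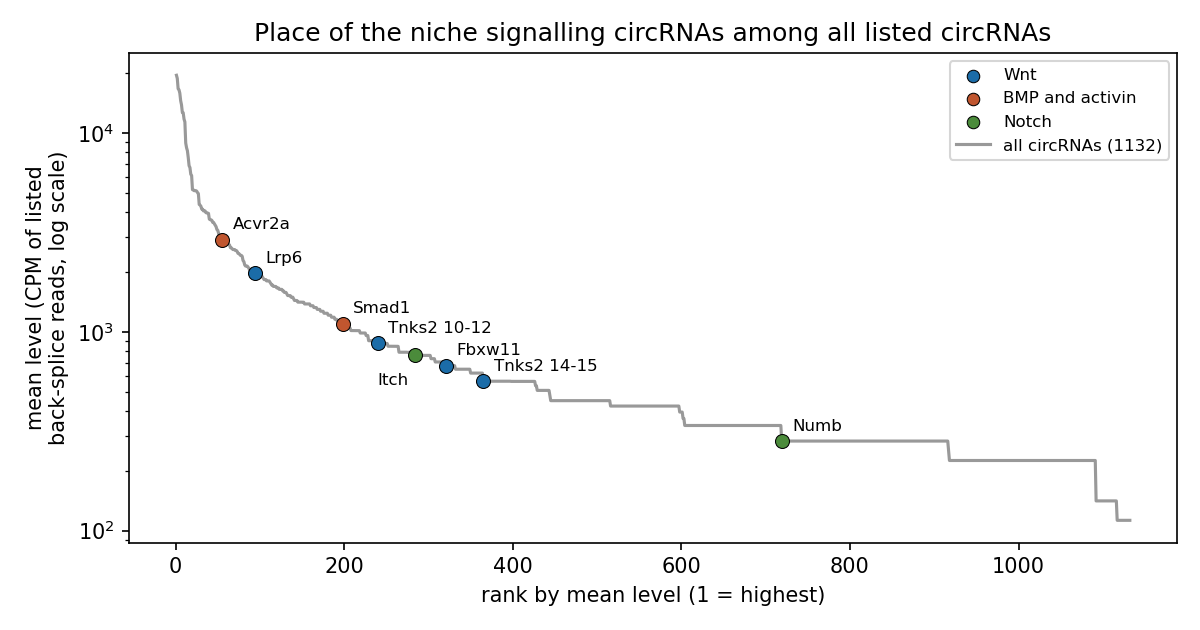
Mean level over both libraries (CPM of listed back-splice reads, log scale) against rank for all 1132 circRNAs (grey line), with the 8 circRNAs as points coloured by pathway. Acvr2a stands at rank 55, Lrp6 at rank 94 and Numb at rank 719.

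The Wnt genes held 33 of the 73 reads, and their leading circle was that of Lrp6. Lrp6 (ENSMUSG00000030201) encodes the Wnt co-receptor that is phosphorylated on ligand binding and recruits axin to the membrane. Its circRNA had 6 reads in replicate 1 and 10 in replicate 2, or 1972 ± 396 CPM (SD, n = 2), rank 94 of 1132. It was present in both libraries, and the ratio of replicate 1 to replicate 2 was 0.751 in CPM with an exact 95% interval of 0.224 to 2.28. The circle is exon 2 of 23 alone (chromosome 6, 134541652 to 134542045, minus strand, mm10), 394 bases that are wholly coding. They cover residues 19 to 150 of 1613, in the extracellular N-terminal part of the receptor, where the first of its beta-propellers lies.

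Lrp5, the paralogous co-receptor, also gave a circle of its exon 2 alone. It lies at chromosome 19, 3659244 to 3659640 (minus strand), has 397 bases and covers residues 30 to 162 of 1614. It had 3 reads in replicate 1, with 0 listed for replicate 2, against 6 and 10 reads for Lrp6. A second Lrp5 circle, of exons 3 to 5 (chromosome 19, 3647528 to 3652330), had 0 reads listed for replicate 1, with 2 reads in replicate 2. In a global alignment, 256 of 394 aligned bases of both exons 2 were identical (65.0%), and so were 96 of 132 aligned residues (72.7%). Across the 40 bases centred on each join, 24 were the same. The first 120 bases of both exons are shown, with the longest run that both share, 16 bases, in capitals.
Lrp6 exon 2: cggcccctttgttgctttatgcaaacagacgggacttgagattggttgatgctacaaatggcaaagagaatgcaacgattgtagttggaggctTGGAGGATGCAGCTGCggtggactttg
Lrp5 exon 2: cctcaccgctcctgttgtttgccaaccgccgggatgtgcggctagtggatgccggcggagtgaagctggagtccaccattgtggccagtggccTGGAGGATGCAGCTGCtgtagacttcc

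Tnks2 (ENSMUSG00000024811) encodes tankyrase 2, a poly(ADP-ribose) polymerase that marks axin for degradation and thereby favours Wnt signalling. It was the 1 gene of the 7 with more than 1 circle, whereas 199 of 824 host genes in the table (24.2%) had at least 2. The circle of exons 10 to 12 of 27 (chromosome 19, 36862086 to 36866123, plus strand, 343 bases) had 3 reads in replicate 1 and 4 in replicate 2, 873 ± 38.7 CPM, with a ratio of replicate 1 to replicate 2 of 0.939 and an exact 95% interval of 0.138 to 5.55. The circle of exons 14 to 15 (36871613 to 36872588, 312 bases) had 4 reads in replicate 1, with 0 listed for replicate 2. The first was thus in both libraries and the other in replicate 1 alone. They share no end and no exon, and exon 13 is in neither. Both are wholly coding, for residues 369 to 483 and 510 to 613 of 1166, within the ankyrin repeat region through which tankyrases bind partners such as axin. Summed, Tnks2 had 7 and 4 reads, 1437 ± 759 CPM.

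Fbxw11 (ENSMUSG00000020271) encodes a beta-TrCP F-box protein, the substrate receptor of a ubiquitin ligase that takes phosphorylated beta-catenin to the proteasome. It had 6 reads in replicate 2, with 0 listed for replicate 1. Its circle has the longest span of the 8, 59250 bases (chromosome 11, 32652748 to 32711997, plus strand). Its first exon, of 157 bases, is not in any of the 3 coding transcripts of the basic annotation set. It is annotated in a nonsense-mediated decay transcript (ENSMUST00000143290.1), which matched both ends as exons 2 to 4 of 5, and in a processed transcript. The other exons of the circle, of 102 and 226 bases, are also in coding transcripts. With those exons the circle measures 485 bases. A 63-base exon that other coding transcripts hold lies inside the span, and the table does not say whether the circle contains it.

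The BMP and activin pair held 32 of the 73 reads in 2 circles, both in both libraries. Acvr2a (ENSMUSG00000052155) encodes a type II receptor for activins that also takes part in BMP signalling. It had 11 reads in replicate 1 and 12 in replicate 2, 2902 ± 283 CPM, rank 55 of 1132, the highest level of the 8. The ratio of replicate 1 to replicate 2 was 1.15 in CPM, with an exact 95% interval of 0.459 to 2.84. The circle holds exons 2 to 4 of 11 (chromosome 2, 48870289 to 48873473, plus strand), 473 bases, all coding, for residues 19 to 176 of 513. These residues take in the extracellular ligand-binding part of the receptor. They also hold residues 139 to 157, the most hydrophobic stretch of 19 residues from residue 19 on (mean Kyte-Doolittle hydropathy 2.59), at the place of the membrane-spanning segment. The 57 bases that encode it lie in exon 4 and are in capitals here, with 20 bases on either side.
Acvr2a exon 4: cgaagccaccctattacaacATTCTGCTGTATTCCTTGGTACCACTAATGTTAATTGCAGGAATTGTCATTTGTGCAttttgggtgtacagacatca

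Smad1 (ENSMUSG00000031681) encodes a transcription factor that BMP receptors phosphorylate and that then enters the nucleus with SMAD4. Its circle had 3 reads in replicate 1 and 6 in replicate 2, 1098 ± 357 CPM, rank 198. It was in both libraries, and the ratio of replicate 1 to replicate 2 was 0.626 in CPM with an exact 95% interval of 0.101 to 2.93. As for Lrp6, the circle is exon 2 alone (chromosome 8, 79371784 to 79372364, minus strand, exon 2 of 7). It is the longest of the 8 when spliced, with 581 bases. Of these, 181 are noncoding and 400 encode residues 1 to 134 of 465, the N-terminal part with the DNA-binding MH1 domain, and the annotated start codon is inside. All 3 transcripts that hold both ends give the same exon.

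The Notch regulators had the fewest reads, 8 of the 73. Itch (ENSMUSG00000027598) encodes a HECT-type ubiquitin ligase that targets Notch receptors, among other proteins. It had 3 reads in each library, 761 ± 121 CPM, with a ratio of replicate 1 to replicate 2 of 1.25 and an exact 95% interval of 0.168 to 9.35. Its circle joins exon 4 to exon 3 of 26 (chromosome 2, 155157774 to 155163483, plus strand, 293 bases) and holds the start codon and residues 1 to 24 of 864. The 202-base exon at which it starts is in 1 of the 2 coding transcripts of the basic set and is noncoding there. The 91-base exon at its end is in both.

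Numb (ENSMUSG00000021224) encodes an endocytic adaptor that restrains Notch signalling and was first known in Drosophila for its unequal inheritance at cell division. Its circle had 2 reads in replicate 1, was listed at 0 in replicate 2 and ranked 719. A further 197 circRNAs had the same pair of counts. The circle spans 34595 bases (chromosome 12, 83842218 to 83876812, minus strand) and matched exons 2 to 4 of 11, 371 bases with the start codon and residues 1 to 42 of 593. Of the 4 coding transcripts of the basic set, 1 holds both ends of the circle. Transcripts that skip its 85-base middle exon give 286 bases, and the table does not tell these forms apart. The entry also names AC132954.2, whose Ensembl identifier is Gm3791 in GENCODE M21, a processed pseudogene of 768 bases on the same strand that lies between the exons of the circle. Neither end of the circle is in the pseudogene.

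**Figure D3:**
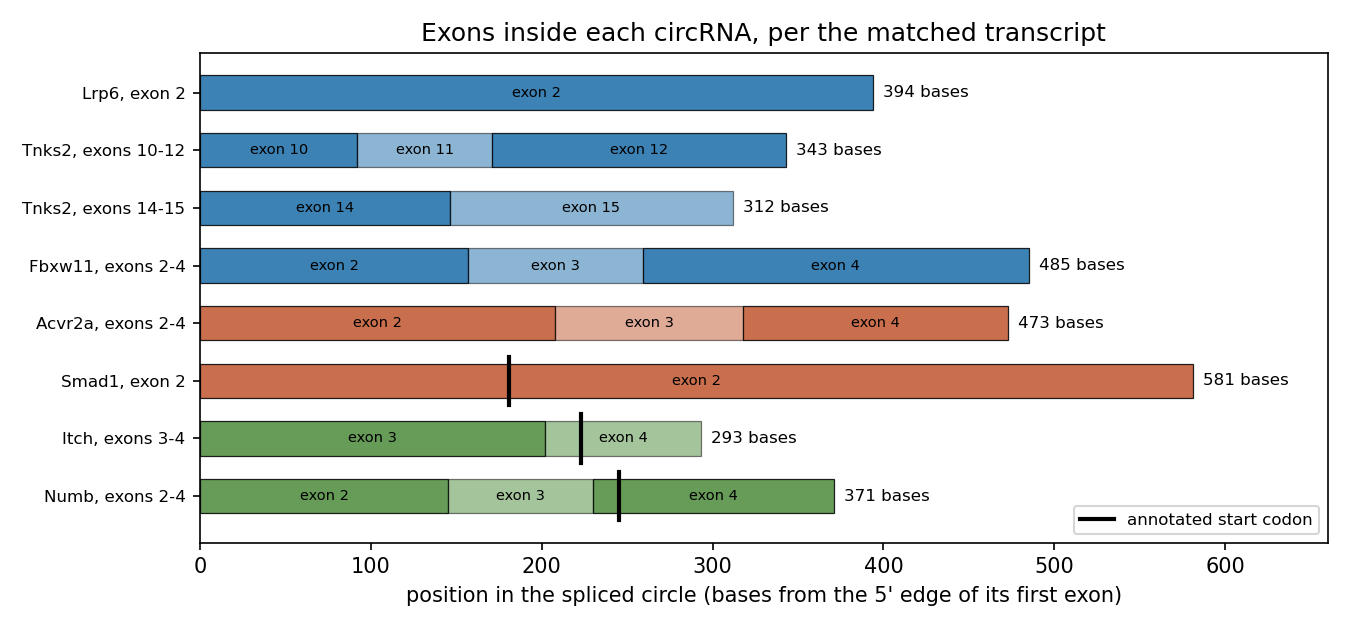
Exon make-up of each circRNA along its spliced length in bases from the 5' edge of its first exon, with shading that alternates by exon, colours by pathway and a black bar at the annotated start codon. Lrp6 and Smad1 are single exons of 394 and 581 bases, and the start codon lies inside Smad1, Itch and Numb.

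Ordered by mean level, the genes ran Acvr2a, Lrp6, Tnks2, Smad1, Itch, Fbxw11 and Numb. Acvr2a was above Lrp6 in both libraries (3102 and 2702 CPM for Acvr2a, 1692 and 2252 CPM for Lrp6). The ranges of every other neighbouring pair over the libraries overlapped. None of the 6 neighbouring pairs differed in summed reads beyond counting error (exact binomial test against equal counts, two-sided, lowest Benjamini-Hochberg adjusted p = 0.884 over 6 pairs), with 23 reads for Acvr2a and 16 for Lrp6. Neighbours were taken from the order by level itself, which picks close pairs, and genes further apart in that order were not tested. For likeness, circles with at least 5 reads were matched with circRNAs of other hosts that had exactly the same 2 counts, a description over 2 libraries. Acvr2a had no match and Lrp6 had 1, in Slc12a8. Smad1 had 3, in Lcorl, Srgap1 and Stx6, and Tnks2 exons 10 to 12 had 11, such as Acer3, Bfsp1 and Cog5. Fbxw11 had 10, such as Bfar, Dock1 and Dtnb, and Itch had 18, such as Atrnl1, Cpq and Dcaf17.

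All 8 circles were listed as exonic and had both ends at splice sites of 1 annotated transcript, as did 1008 of 1132 circRNAs (89.0%). The first exon was exon 2 for 5 of the 8, against 360 of 1008 (35.7%), namely Lrp6, Acvr2a, Smad1, Numb and, in its decay transcript, Fbxw11. A single exon made up 2 of the 8, Lrp6 and Smad1, against 66 of 1008 (6.55%). The start codon was inside 3 of the 8, Smad1, Itch and Numb, against 153 of 998 circRNAs whose transcript has an annotated start codon (15.3%). Spliced lengths ran from 293 bases in Itch to 581 in Smad1, with a median of 382.5 bases against 368 for all. Of the 8, 4 were wholly coding (Lrp6, both Tnks2 circles and Acvr2a), against 822 of 1008 (81.5%). Fbxw11 was read under its decay transcript, where 96 of 485 bases are coding. Of the 4 wholly coding circles, Tnks2 exons 14 to 15 was also of a length divisible by 3, and 282 of 1008 circRNAs (28.0%) were both. GC content ran from 41.0% in Acvr2a to 53.7% in Smad1, with a median of 46.3% against 48.8% for all. These shares describe 8 circles chosen by gene, and no test was run on them.

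The intron upstream was longer than the intron downstream for all 8 circles, against 545 of 1008 circRNAs (54.1%). The medians were 22049 bases upstream and 9347.5 downstream for the 8, against 11050 and 8216 for all. Acvr2a had 55462 and 16824 bases, Numb 45005 and 10221, and Lrp6 24597 and 21058. Smad1 had 26888 and 15314, Itch 19501 and 5200, and Fbxw11 9812 and 8474 bases. Tnks2 stood apart with short introns, 2909 and 1516 bases around exons 10 to 12 and 3893 and 1208 around exons 14 to 15. The Lrp5 circle of exon 2 had the longer intron upstream (26714 and 6913 bases), and that of exons 3 to 5 had it downstream (6913 and 17057 bases).

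**Figure D4:**
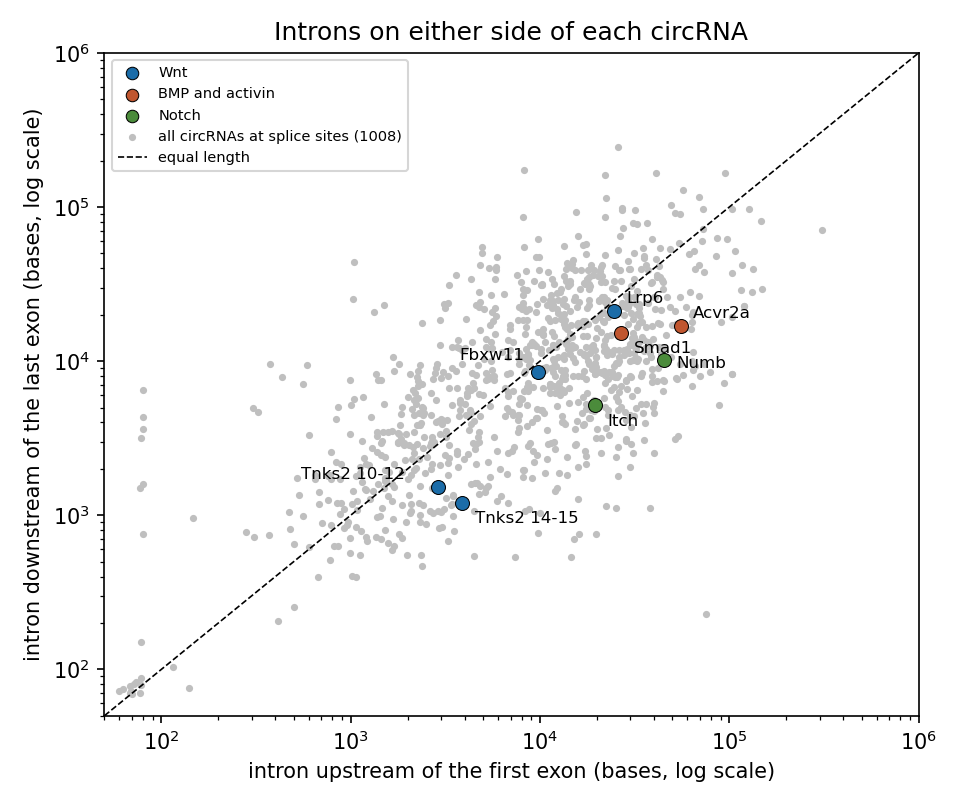
Length of the intron upstream of the first exon (horizontal) against that of the intron downstream of the last exon (vertical), both on log scales in bases, for the 8 circRNAs (coloured by pathway) and all 1008 circRNAs at splice sites (grey). All 8 lie below the dashed line of equal length, and both Tnks2 circles have the shortest introns of the 8.

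Beyond the 7 genes, Lrp5 and Spen were the other hosts in the lists of Wnt, BMP and TGF-beta, and Notch genes. Shares are over multi-exon protein-coding genes, 58 of 62 Wnt genes, 49 of 50 BMP and TGF-beta genes and 43 of 44 Notch genes. Hosts were 4 of the 58 (6.90%), Lrp6, Tnks2, Fbxw11 and Lrp5, then 2 of the 49 (4.08%), Acvr2a and Smad1, and 3 of the 43 (6.98%), Itch, Numb and Spen. Over all multi-exon protein-coding genes the share was 813 of 20596 (3.95%). Spen, which encodes a corepressor that works with the Notch effector RBPJ, had circles of exon 3 (chromosome 4, 141516836 to 141517318) and of exons 2 to 3 (141516836 to 141522392), with 2 reads each in replicate 1 and 0 listed in replicate 2. The ligand, Frizzled, R-spondin receptor, BMP ligand, Notch receptor and Notch ligand genes of the lists, such as Wnt3, Fzd7, Lgr5, Bmp4, Notch1 and Dll1, were not listed as hosts. The 7 genes were picked because they are hosts, so these counts are no test of the pathways.

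The labelled cell type was set against marker genes, as far as circles allow. None of 17 stem cell markers (Lgr5, Olfm4 and Ascl2 among them), of 10 Paneth cell markers or of 18 markers of stroma and other mesenchymal, vascular and glial cells was a host. Over all multi-exon protein-coding genes 813 of 20596 (3.95%) were hosts, so lists this short can hold none at that share. Of 15 absorptive enterocyte markers 9 were hosts, with 127 reads in replicate 1 and 104 in replicate 2, and 4 of the 9 had a circle at splice sites. Most of these reads came from Sis (64 and 68 reads) and Enpep (24 and 16 reads), and an entry of Apob was listed as antisense. Of 16 immune markers 3 were hosts, with 4 and 26 reads. A gene can be transcribed without giving a listed circle, so an unlisted marker does not show that its cells are missing. The part that other cell types have in the circles of the 7 genes was not tested, and in such bulk libraries fewer cells of a type and less RNA per cell cannot be told apart.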

How the data were processed

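Libraries were prepared from total crypt RNA with the MGIEasy RNA kit, per the labels' protocols. Per the submitters' processing notes, reads were placed on mm10. Aligner, circRNA caller, filters and strand handling were not given in the sources used here. 1 deposited table holds raw counts of back-splice reads, per the file headers. It also holds the authors' CPM, a normalised signal worth 272 per read in replicate 1 and 233 in replicate 2. 0 columns of sample values were unused. Depth was 3546 and 4441 listed back-splice reads, which is not the sequencing depth.

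Here, CPM was computed on the listed totals. Each circRNA's reads were tested with an exact binomial test (SciPy 1.17.1) against those totals, adjusted over all circRNAs of the table, after a check on simulated data. With 1 group there is no contrast between conditions for a count model. Ends were matched to GENCODE M21. Where several transcripts matched, coding and basic transcripts with the longest coding sequence were preferred. TMM (edgeR 4.0.16) and DESeq2 1.42.0 size factors were alternatives. Exons were aligned with Biopython 1.88 (match 1, mismatch -1, gap opening -5, extension -1). Introns, hydropathy, neighbouring levels and the Lrp5 alignment were examined after values were seen. The genes and lists were chosen with earlier results of these data known. Named are all circRNAs of the 7 genes, other hosts of the 3 pathway lists, and up to 3 hosts with equal counts for each circle of at least 5 reads.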

Additional observations from a re-analysis of the deposited data

How the results depend on the processing

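The number of the 8 circles that differed between the libraries was 0 under all 4 alternatives (totals of circRNAs in both libraries, TMM, DESeq2 size factors, and circRNAs with at least 5 reads), with lowest adjusted p from 0.209 to 0.446 in the exact binomial test. The number in both libraries was 5 under both alternatives. The levels of the 7 genes moved by less than the SD of the replicates under TMM and the deposited CPM, which gave the same values as each other. The levels of Fbxw11 and Numb rested on a single library. Fbxw11 (676 CPM) was 1351 without replicate 1 and 0 without replicate 2, and Numb (282 CPM) was 0 without replicate 1 and 564 without replicate 2. Tnks2 (1437 CPM), with reads in both libraries, was 901 without replicate 1 and 1974 without replicate 2. The share of reads, 0.913% over all circRNAs, was 1.01% among circRNAs at splice sites, 1.13% among circRNAs in both libraries and 0.885% without the entry that names 2 genes. With circRNAs in both libraries alone there were 2 Wnt hosts and 1 Notch host, and leaving out each replicate in turn gave 1 to 3 Notch hosts, the 1 being without replicate 1, and 3 to 4 Wnt hosts, the 3 being without replicate 2. Numb and Spen were listed in replicate 1 alone. No paired analysis was possible because the series has 1 group. Counts of 2 to 23 reads per circle limit every comparison here.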

Other observations

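The 3 circles with an annotated start codon were read from that codon round the join until the next in-frame stop. Smad1 gave 194 codons, 61 of them past the 133 whole codons before the join, where the protein has 465 residues. Itch gave 26 codons, of which 23 came before the join, and Numb 48, of which 42 came before it. The Tnks2 circle of exons 14 to 15 is wholly coding and its 312 bases divide by 3, as in 282 of 1008 circRNAs at splice sites (28.0%), so the protein's frame runs round it with no stop, and that frame holds 0 ATG codons. These readings describe sequence under the matched transcripts. Translation was not measured.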
